A study of Mus musculus with 24 samples.

Results

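The genes described here are 40 genes of the skeletal muscle contractile apparatus, its calcium handling and its energy supply, measured in the mouse oesophagus. They were taken by name from the probe annotation of the arrays, with older symbols resolved through RefSeq accessions, and not from their measured values. The 40 genes had 74 probes of 41174, and all 40 were among the 20565 genes tested. By role, 10 belong to the thick filament, 9 to the thin filament, 10 to the Z-disc, M-line and titin system, 6 to calcium handling and 4 to energy supply, and 1 is a transcription factor. By fibre type, 8 were listed as slow and 14 as fast, and 18 as neither.

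The study compared C57BL/6J wild-type mice with Nrf2-/- mice, which lack the transcription factor Nrf2 encoded by Nfe2l2, in 4 conditions: without reflux, and with gastric, duodenal or mixed reflux. Its stated comparison is that of the genotypes within each condition. All animals were male and 12 weeks old per the labels, and each of the 8 groups held 3 two-colour arrays, 24 in all, that the labels call biological replicates. The p-values measure only the spread between these arrays. Cy5 carried the oesophageal RNA and Cy3 a commercial reference RNA pooled from 11 mouse cell lines, with no dye swap. The tissue entry of 7 groups reads whole oesophagus and that of Nrf2-/- mixed reflux reads oesophageal epithelium, while the source entry of every group names the epithelium. All 40 genes were well above background on each of the 3 Nrf2-/- mixed reflux arrays, so the epithelium label went against the skeletal muscle transcripts found there.

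The outer muscle coat of the rodent oesophagus is striated along nearly its whole length, beneath a stratified squamous epithelium. A sarcomere slides thick filaments of myosin along thin filaments of actin, tropomyosin and troponin, and calcium released from the sarcoplasmic reticulum through Ryr1 starts the movement. Slow and fast fibres use different genes for the same parts: Myh7 encodes the slow myosin heavy chain and Myh1, Myh2 and Myh4 the fast ones, Tnnt1, Tnni1 and Tnnc1 the slow troponins and Tnnt3, Tnni2 and Tnnc2 the fast ones. In RNA from a whole organ, fewer muscle fibres in a sample and less of a transcript per fibre cannot be told apart.

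The promoters of the 4 genes whose ratio differences under gastric reflux passed the test in at least 1 comparison are shown with that of Myh4, a fast myosin gene that did not pass, so that slow and fast genes can be set side by side. Each runs 5′ to 3′ from 250 bases before to 50 bases after the RefSeq start site (GRCm38.p6), and capitals mark any match to the E-box (CANNTG, bound by MyoD family factors), the MEF2 motif or the CArG box (bound by serum response factor). For Myh7 the first of 2 listed start sites is printed.
Tnnt1, chr7:4515926-4516225, minus strand: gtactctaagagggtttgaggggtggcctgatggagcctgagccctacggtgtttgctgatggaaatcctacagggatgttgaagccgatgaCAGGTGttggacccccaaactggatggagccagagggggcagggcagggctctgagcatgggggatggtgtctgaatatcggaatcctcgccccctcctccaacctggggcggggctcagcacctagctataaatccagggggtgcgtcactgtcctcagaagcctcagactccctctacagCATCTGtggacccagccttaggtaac
Myh7, chr14:54994577-54994876, minus strand: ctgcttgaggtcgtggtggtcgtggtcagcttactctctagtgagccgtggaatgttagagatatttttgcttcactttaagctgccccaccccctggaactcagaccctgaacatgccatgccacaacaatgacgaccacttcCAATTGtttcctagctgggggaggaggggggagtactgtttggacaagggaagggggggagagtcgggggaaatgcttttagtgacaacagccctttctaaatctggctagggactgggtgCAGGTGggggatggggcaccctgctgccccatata
Tnnc1, chr14:31208062-31208361, plus strand: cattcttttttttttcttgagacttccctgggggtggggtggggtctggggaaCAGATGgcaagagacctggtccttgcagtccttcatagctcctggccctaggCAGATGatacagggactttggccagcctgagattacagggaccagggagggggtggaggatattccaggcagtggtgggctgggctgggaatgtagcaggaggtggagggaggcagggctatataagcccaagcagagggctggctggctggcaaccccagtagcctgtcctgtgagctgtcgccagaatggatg
Casq2, chr3:102086165-102086464, plus strand: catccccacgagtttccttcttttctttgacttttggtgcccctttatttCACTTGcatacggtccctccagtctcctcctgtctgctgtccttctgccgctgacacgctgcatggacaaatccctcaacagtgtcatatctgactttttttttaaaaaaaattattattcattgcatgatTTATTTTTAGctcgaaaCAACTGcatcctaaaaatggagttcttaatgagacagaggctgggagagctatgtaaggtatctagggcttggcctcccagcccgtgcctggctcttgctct
Myh4, chr11:67237562-67237861, plus strand: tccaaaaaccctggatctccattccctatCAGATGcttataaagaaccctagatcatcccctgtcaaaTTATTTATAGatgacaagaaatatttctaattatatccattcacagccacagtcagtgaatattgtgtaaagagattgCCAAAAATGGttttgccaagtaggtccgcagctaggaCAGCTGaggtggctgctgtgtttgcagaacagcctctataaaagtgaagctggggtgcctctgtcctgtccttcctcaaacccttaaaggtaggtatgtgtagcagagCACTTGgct
The 3 motifs read the same on both strands. An E-box was found in 72.3% of 32851 RefSeq promoters of the same length and in 28 of the 33 genes described here that had an entry (84.8%). The MEF2 motif was found in 3.19% of all promoters and in 6 of the 33, namely Myh1, Myh4, Ttn, Myoz2, Casq2 and Pvalb. The CArG box was found in 1.63% of all promoters and in 5 of the 33, namely Acta1, Myh4, Myl3, Ldb3 and Myom1. The shares of all promoters count entries, while a gene counts here if any of its entries matched. By entry, the 33 genes had 40 promoters, of which 33 held an E-box, 6 a MEF2 match and 6 a CArG match. Of the 5 promoters shown, Casq2 held a MEF2 match whose first base lay at -69 (bases before the start site counted from -1), and Myh4 held a MEF2 match at -182 and a CArG match at -104. Tnnt1, Myh7 and Tnnc1 held E-boxes alone. A match is a description of these letters and not a site of binding.

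Several arrays stood apart before any comparison. The 3 Nrf2-/- mixed reflux arrays differed from each other by 0.541 to 1.3 times the variance between repeat spots of a probe. In the other groups the closest pair stood at 2.53 times and the farthest at 141 times. The mean of these 3 arrays therefore entered the fit as a single sample, for 22 in total. The 3 wild-type duodenal reflux arrays were the next closest group, at 2.53 to 4.79 times. Replicates 2 and 3 of wild-type gastric reflux stood at 11.5 times and were kept as 2 samples. Over the 40 genes, however, they differed by a median of 0.076, against 0.058 to 0.075 for pairs of Nrf2-/- mixed reflux arrays. The later alternative with close arrays averaged merged this pair, the 3 wild-type duodenal reflux arrays, and replicates 1 and 3 of Nrf2-/- duodenal reflux. Wild-type replicates 1 and 2 without reflux lost 13.0% and 11.8% of spots to the scanner's outlier marks, against 0.293% to 0.659% on the other arrays, and lacked 3 and 6 of the 40 genes. Nrf2-/- gastric reflux replicate 2, labelled male, had a log2 ratio of -4.20 for the Y-linked gene Ddx3y, against 0.16 to 1.48 on the other 23 arrays. Nfe2l2 carried the level of its label on the 22 arrays that measured it. The median Cy5 signal of an array ran from 81.8 to 249, and no spot of the 40 genes was saturated.

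Most of the 40 genes moved together from array to array, with wide differences inside 3 of the 8 groups. The mean log2 ratio over the genes was 0.63, 1.17 and 0.86 on the 3 wild-type arrays without reflux, 0.47, 4.66 and 4.62 with gastric reflux, 2.50, 2.51 and 2.51 with duodenal reflux, and 1.73, 3.75 and 1.46 with mixed reflux. In Nrf2-/- mice it was 1.53, 2.47 and 2.39 without reflux, 4.50, 1.52 and 1.58 with gastric reflux, 2.65, 3.03 and 2.70 with duodenal reflux, and 3.09, 3.09 and 3.03 with mixed reflux. So 4 arrays carried the highest muscle signal, replicates 2 and 3 of wild-type gastric reflux, replicate 1 of Nrf2-/- gastric reflux and replicate 2 of wild-type mixed reflux, and each of the 3 groups they came from also held an array at 1.58 or lower. The median Cy5 signal over all spots was 249 and 214.1, 88.25 and 242.8 on those 4 arrays in that order, so they included both the brightest array and a dim one. The group SD of this mean was 2.40 (n = 3) in wild-type gastric reflux and 1.71 (n = 3) in Nrf2-/- gastric reflux, against 0.27 (n = 3) in wild type without reflux and 0.01 (n = 3) in wild-type duodenal reflux.

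**Figure D1:**
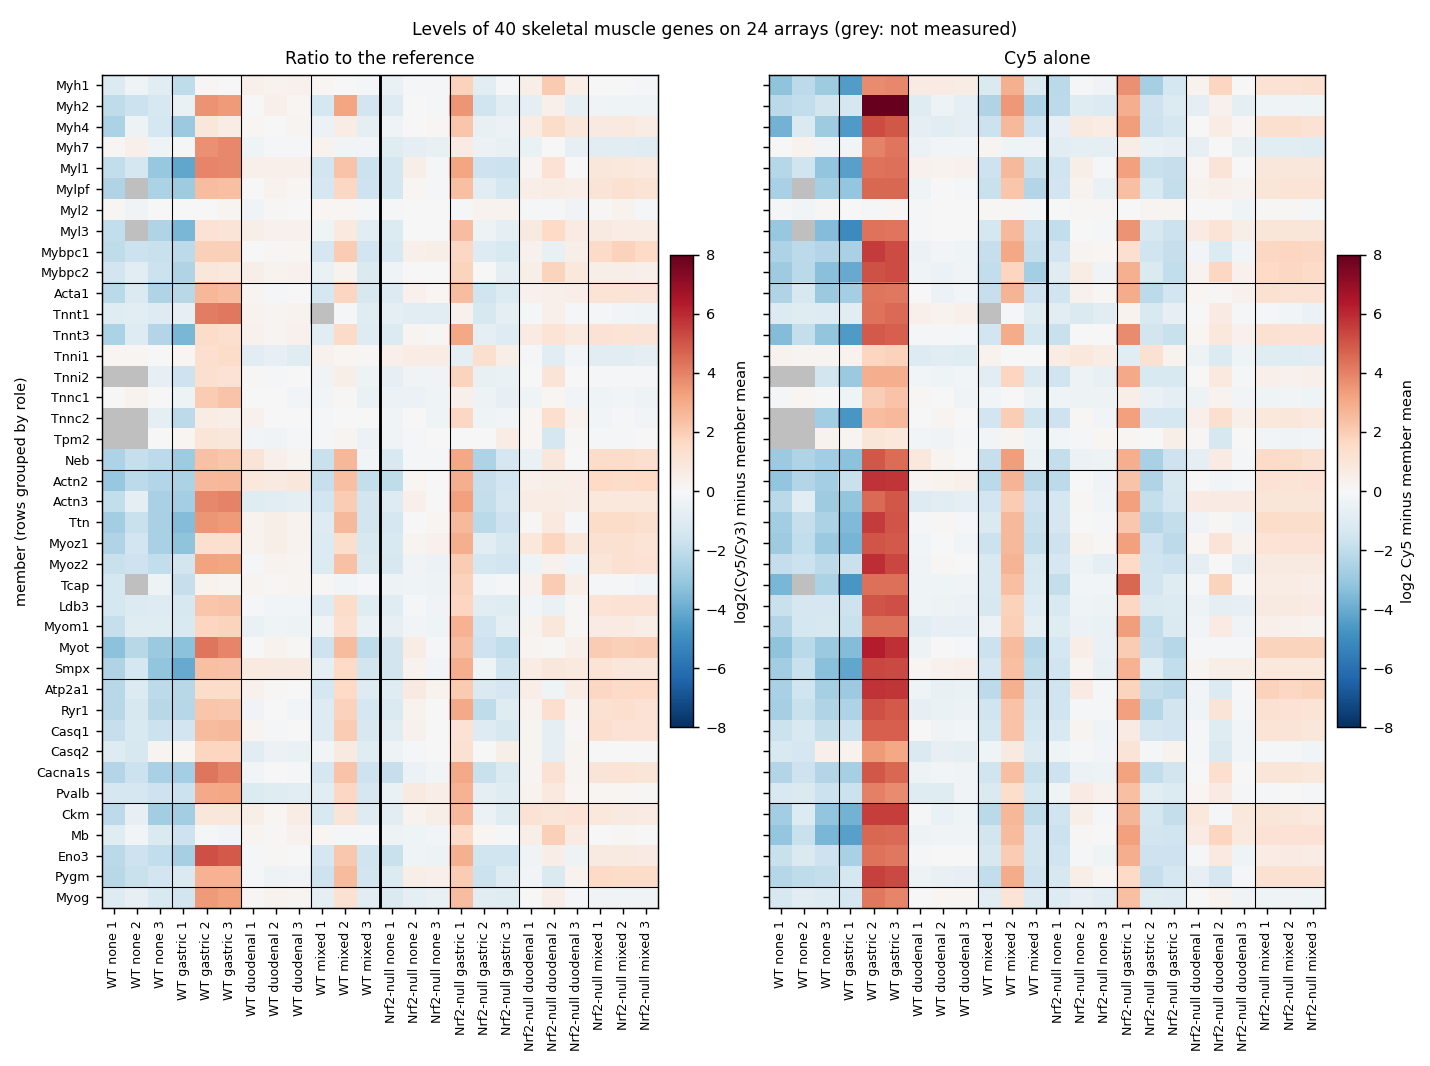
Heat map of the 40 genes (rows, ordered by role) on the 24 arrays (columns, by group), each gene centred on its own mean over arrays in log2 units. The left panel shows the log2 ratio of Cy5 to Cy3 and the right panel Cy5 alone, with grey for a spot not measured. Replicates 2 and 3 of wild-type gastric reflux, replicate 1 of Nrf2-/- gastric reflux and replicate 2 of wild-type mixed reflux stand out as the columns with the highest values, while Myl2 and Tpm2 vary little.

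The residual spread of the genes shows the same. The median residual SD of the 40 genes in the fit was 1.25, against 0.27 over all 20565 genes tested, and 39 of the 40 lay above that overall median. Over the 22 samples, Acta1, the main actin of skeletal muscle, Mylpf, the fast regulatory light chain, and Cacna1s, the voltage sensor of excitation, each correlated with the mean of the other genes at Pearson's r = 0.987. Mb, which encodes myoglobin, correlated at 0.541 and Tpm2 (beta-tropomyosin) at 0.329. Tnni1 (slow troponin I) stood at 0.011 and Myl2 (slow regulatory light chain) at -0.004. These correlations are descriptions over samples that share a reference RNA and a normalisation. Myl2 was well above background on 9 of the 24 arrays and on none of the arrays of wild type without reflux, wild-type duodenal reflux or Nrf2-/- without reflux. Its range of 0.59 is therefore near the limit of what these arrays could measure.

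Among the thick filament genes, the fast heavy chains differed in how far they spread. Myh2, the IIa heavy chain, had log2 ratios of 0.40, 0.68 and 1.13 in wild type without reflux and of 1.88, 6.01 and 5.82 with gastric reflux. Its values in Nrf2-/- mice were 1.35, 2.39 and 2.24 without reflux and 5.91, 0.83 and 1.52 with gastric reflux. Under gastric reflux each genotype thus held both low and high arrays for Myh2, and the genotypes overlapped. Another of its probes, designed to a separate transcript record, spanned 2.42 over the arrays and read 0.95 on wild-type gastric reflux replicate 2, where the probe used here read 6.01. On the probe used here, Myh1, the IIx heavy chain, ranged over 4.16. Its log2 ratio was lowest, 2.98, on wild-type gastric reflux replicate 1 and highest, 7.14, on Nrf2-/- duodenal reflux replicate 2. The array with its highest value depended on the scale. On Cy5 alone that was wild-type gastric reflux replicate 3, at 18.61, against 16.52 on Nrf2-/- duodenal reflux replicate 2. Myl1, the fast essential light chain, had the largest range of the 40 genes on the ratio, 8.10, from -1.28 to 6.82, while on Cy5 alone the largest was that of Myh2, 11.02. Its lowest and highest values both came from wild-type gastric reflux.

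Myh7, the slow heavy chain, had another profile. Its log2 ratio was -0.61, -0.29 and -1.02 in wild type without reflux, and -0.87, 2.99 and 3.15 with gastric reflux. It was -1.04, -0.79 and -0.80 with duodenal reflux and -0.41, -0.90 and -0.92 with mixed reflux. The Nrf2-/- arrays read -1.68, -1.45 and -1.30 without reflux, -0.03, -1.17 and -1.30 with gastric reflux, -1.22, -0.67 and -1.34 with duodenal reflux and -1.61, -1.56 and -1.66 with mixed reflux. Only replicates 2 and 3 of wild-type gastric reflux lay above 0 for Myh7. Replicate 2 of wild-type mixed reflux, which was high for the fast genes, read -0.90 here.

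Among the thin filament genes, Tnnt1, slow troponin T, followed Myh7. Its log2 ratio was -2.28, -2.25 and -2.37 in wild type without reflux, and -1.98, 2.75 and 2.87 with gastric reflux. It was -1.03, -1.10 and -1.03 with duodenal reflux, and -1.43 and -2.29 on the 2 mixed reflux arrays that measured it. Its Nrf2-/- values were -2.08, -2.26 and -2.15 without reflux, -1.003, -2.60 and -2.06 with gastric reflux, -1.44, -0.92 and -1.41 with duodenal reflux and -1.50, -1.53 and -1.69 with mixed reflux. Here too the same 2 wild-type gastric reflux arrays stood above all others. Tnnc1, the slow and cardiac troponin C, was above 0 on those 2 arrays alone, at 0.75 and 1.02, and lay between -1.96 and -0.87 on the other 22. Tnni1 was highest on them as well, at 2.79 and 2.91, but Nrf2-/- gastric reflux replicate 2 came next at 2.73, and the lowest value, 0.50, was in wild-type duodenal reflux. Its fast counterpart Tnni2 ran from 1.86 to 5.34 and was highest on Nrf2-/- gastric reflux replicate 1. Acta1 ran from 0.97 to 6.05.

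In the Z-disc, M-line and titin system, Ttn, the molecular spring that spans the sarcomere, ran from -0.17 to 6.80, and Myot (myotilin, a Z-disc protein) from 0.77 to 8.36. Actn3, the alpha-actinin of fast fibres, read -1.45, -0.20 and -2.06 in wild type without reflux and -2.18, 4.38 and 4.51 with gastric reflux, a range of 6.69 in all. Tcap, the cap of titin at the Z-disc, spanned 3.86. In calcium handling, Ryr1, the release channel, ran from 0.51 to 5.84 and Casq1, the fast calsequestrin, from -0.40 to 4.02. Casq2, the calsequestrin of slow and cardiac muscle, spanned 2.99. It read 1.12, 0.88 and 2.37 in wild type without reflux and 2.32, 3.83 and 3.87 with gastric reflux, so the lowest gastric reflux array lay just below the highest array without reflux. In energy supply, Ckm, the muscle creatine kinase, ran from 1.14 to 6.52 and Eno3, the muscle enolase, from -3.06 to 4.76. Myog, the transcription factor myogenin, was at its lowest, -1.74, on wild-type gastric reflux replicate 1 and at its highest, 3.13, on replicate 2 of the same group.

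The Cy3 channel, which held the same reference RNA on every array, did not stay level for these probes. Over the 24 arrays the highest raw Cy3 intensity was a median of 15.6 times the lowest for the 40 genes, against 1.7 times for the 19707 probes well above background in both dyes. Of those probes 3.79% exceeded 4-fold, and 29 of the 40 genes did. For 36 of the 40 the highest Cy3 intensity was on wild-type gastric reflux replicate 2 or 3, where Cy5 was also highest for most. For Mb, raw Cy3 ran from 173.7 to 33310 while Cy5 ran from 631.9 to 403400. For Tnnt1, Cy3 ran only from 6345 to 10000 while Cy5 ran from 239.6 to 53560. Ratios to Cy3 were therefore smaller than the Cy5 changes for Mb, Myh1 and most of the 40 genes, and close to them for Tnnt1 and Myh7. Why Cy3 differed was not tested, and the median difference of the 40 genes in each comparison below is given for the ratio and for Cy5 alone, the latter after normalisation across arrays. Other values below are those of the ratio unless Cy5 is named, and where no Cy5 call is named none of the 40 genes passed on Cy5 in that comparison of groups.

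**Figure D2:**
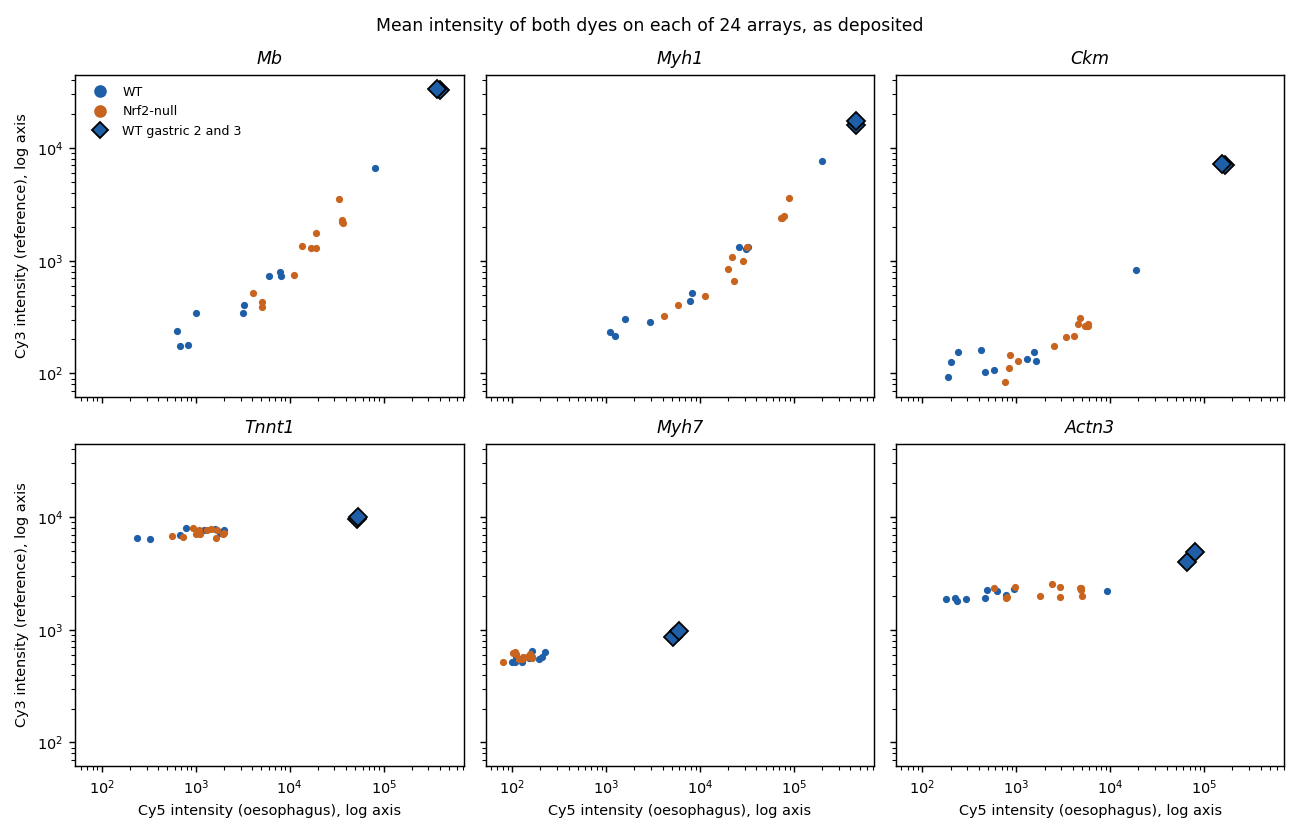
Raw Cy3 intensity of the reference (vertical, log axis) against raw Cy5 intensity of the sample (horizontal, log axis) on the 24 arrays, wild type in blue and Nrf2-/- in orange, for Mb, Myh1, Ckm, Tnnt1, Myh7 and Actn3, with diamonds for wild-type gastric reflux replicates 2 and 3. For Mb, Myh1 and Ckm both dyes rise together and Cy3 reaches 33310, 17370 and 7226, while Cy3 of Tnnt1 stays between 6345 and 10000.

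On Cy5 alone the same 4 arrays were highest. The mean log2 Cy5 level over the 40 genes was 8.71, 9.22 and 9.27 in wild type without reflux, 8.77, 15.80 and 15.70 with gastric reflux, 11.07, 11.12 and 11.13 with duodenal reflux and 10.03, 13.35 and 9.90 with mixed reflux. In Nrf2-/- mice it was 10.05, 11.34 and 11.10 without reflux, 13.65, 9.94 and 10.02 with gastric reflux, 11.28, 11.65 and 11.31 with duodenal reflux and 12.07, 12.06 and 12.01 with mixed reflux. The lowest and highest of the 24 arrays were 7.03 apart once each gene was centred, against 4.18 on the ratio. The highest array was wild-type gastric reflux replicate 2 or 3 for 36 of the 40 genes on Cy5, and for 21 on the ratio. Mb shows the gap between the scales. Its log2 Cy5 level was 9.49, 18.40 and 18.33 in wild-type gastric reflux, while its log2 ratios on those arrays were 2.40, 3.89 and 3.83.

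Slow and fast genes did not keep a fixed balance. With every gene centred on its own mean, the mean of the 8 slow genes minus that of the 14 fast genes ran on the ratio from 1.61 on wild-type gastric reflux replicate 1 to -1.69 on Nrf2-/- gastric reflux replicate 1. The difference was 1.24, 0.51 and 1.05 in wild type without reflux and -0.36, -0.13 and -0.21 with duodenal reflux. In Nrf2-/- mice it was 0.20, -0.51 and -0.29 without reflux, -0.51, -0.90 and -0.55 with duodenal reflux and -0.75, -0.70 and -0.73 with mixed reflux. Arrays with a low muscle mean thus had more slow than fast signal relative to each gene's mean, and most of those with a high mean less. The slow genes include Myl2, near background, and Tnni1, with slopes of -0.001 and 0.006 on the mean of the other genes. The other slow genes had slopes of 0.406 to 1.249 and the fast genes of 0.452 to 1.737. A slow gene that does not follow the muscle mean lowers the difference as that mean rises, so a lower value need not mean another fibre balance. The 2 high wild-type gastric reflux arrays departed from that on the ratio, at 0.13 and 0.28, but on Cy5 alone they read -1.62 and -1.55, near Nrf2-/- gastric reflux replicate 1 at -2.10 and wild-type mixed reflux replicate 2 at -1.77. Without Myl2 those 2 wild-type gastric reflux arrays read 0.44 and 0.57 on the ratio and -1.15 and -1.10 on Cy5. The sign of the slow to fast balance on them therefore depended on whether Cy3 was used.

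**Figure D3:**
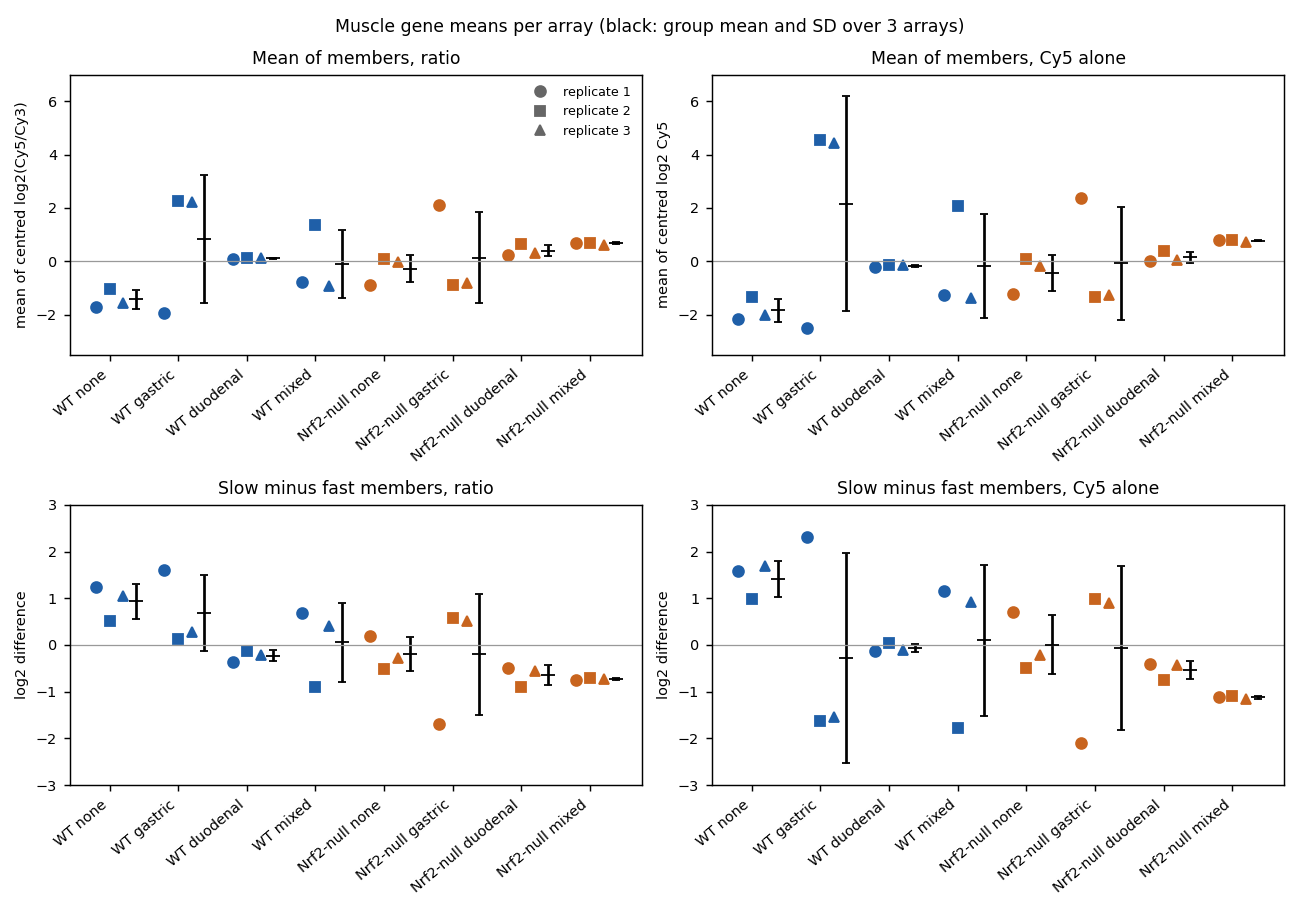
Per array, the mean of the 40 centred genes (log2) and the mean of the 8 slow minus the 14 fast genes (log2), each for the ratio and for Cy5 alone, with points for arrays (wild type blue, Nrf2-/- orange) and a black mark with bar for the group mean ± SD over 3 arrays. Wild-type gastric reflux spans from the lowest to the highest array, and its replicates 2 and 3 change sign in the slow minus fast panels, from 0.13 and 0.28 on the ratio to -1.62 and -1.55 on Cy5.

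Under gastric reflux, 3 slow genes were lower in Nrf2-/- than in wild-type mice and none of the 40 genes was higher. By limma with Benjamini-Hochberg adjustment, Tnnt1 was lower by a log2 ratio of -3.10 ± 0.85 (SE, adjusted p = 0.0228), an 8.59-fold difference. Myh7 stood at -2.59 ± 0.70 (adjusted p = 0.0198) and Tnnc1 at -1.54 ± 0.48 (adjusted p = 0.035). On Cy5 alone the same 3 passed, at -3.18 ± 0.93 (adjusted p = 0.0426), -2.92 ± 0.75 (adjusted p = 0.0254) and -1.56 ± 0.47 (adjusted p = 0.0461), beside 9.84% of all genes called on Cy5. On the ratio these 3 of 40 stand beside 17.6% of all genes called in this comparison and 7.13% called lower. The median difference of the 40 genes was -0.72 (-2.18 on Cy5), with 12 above 0 (2 on Cy5), against a median of 0.11 over all genes tested. The median of the 8 slow genes was -1.10 and that of the 14 fast genes -0.20 on the ratio. On Cy5 they were -1.71 and -1.998. These medians use 1 probe a gene, and further probes did not all go the same way. The Myl3 probe used read 0.653, 5.5 and 5.394 in wild type and 6.822, 3.909 and 3.582 in Nrf2-/- mice. A second Myl3 probe read 0.624, 4.67 and 4.499 against 2.93, 1.159 and 0.375. The second Myh7 probe kept its direction, at -0.864, 3.023 and 3.169 against -0.195, -1.008 and -1.257. Groups overlapped for all 3 called genes, since wild-type gastric reflux replicate 1 lay within the range of the 3 Nrf2-/- arrays for each.

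The calls rested on 2 arrays. Without wild-type gastric reflux replicate 2, or without replicate 3, none of the 40 genes was called, and without replicate 1 of that group 15 were, beside 23.1% of all genes. Without Nrf2-/- gastric reflux replicate 2 the count was 1. Without both high arrays, an alternative added after seeing the data, Tnnt1, Myh7 and Tnnc1 differed by 0.09, 0.04 and 0.18. All wild-type gastric reflux arrays were scanned on the second scan day and all Nrf2-/- gastric reflux arrays on the third, so scan day and genotype cannot be told apart in this pair of groups. With scan day as a block the 3 differences were -3.12, -2.85 and -1.64 and none passed (adjusted p = 0.786, 0.783 and 0.788).

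Gastric reflux against no reflux within wild type gave 2 genes higher. Tnnt1 rose by 3.52 ± 0.85 (SE, adjusted p = 0.035) and Casq2 by 1.88 ± 0.48 (adjusted p = 0.0395), 11.4-fold and 3.69-fold. Myh7 stood at 2.39 ± 0.70 (adjusted p = 0.0599). All 40 genes had a difference above 0, with a median of 2.41 against -0.03 over all genes tested, and 23 had an unadjusted p under 0.05. The 2 calls of 40 stand beside 4.14% of all genes called and 3.09% called higher. On Cy5 alone the median was 4.42 and 4 genes passed, beside 4.66% of all genes: Actn2, the alpha-actinin of all skeletal fibres, by 5.98 ± 1.63 (adjusted p = 0.045; well above background on 1 of 3 arrays without reflux), Tnnt1 by 3.70 ± 0.93 (adjusted p = 0.0341), Casq2 by 2.98 ± 0.66 (adjusted p = 0.0218) and Myh7 by 2.66 ± 0.75 (adjusted p = 0.0498). The count on the ratio was 10 with arrays centred on the median and 9 with backgrounds as read, and it was 13 on Cy5 centred on the median, a scale added after seeing the data. It was 0 with scan day or slide as a block. None was called without wild-type gastric reflux replicate 2 or 3 or without replicate 1 or 2 of wild type without reflux, and 1 without its replicate 3. Without wild-type gastric reflux replicate 1, 33 of the 40 were called, beside 12.4% of all genes. Without Nrf2-/- gastric reflux replicate 1, which enters through the shared spread, 6 were, beside 9.35% of all genes. Within the second scan day, which held 1 array without reflux, Tnnt1 differed by 3.58 (adjusted p = 0.366) and Casq2 by 0.97 (adjusted p = 0.437).

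The same comparison in Nrf2-/- mice had a median of 0.45 (0.405 on Cy5) and gave no call among the 40 genes by limma, with 0 at an unadjusted p under 0.05 on the ratio and 0 on Cy5, beside 0.584% of all genes called. The 3 smallest p-values were those of Mb at 0.82 ± 0.44 (adjusted p = 0.363), Casq2 at 0.80 ± 0.48 (adjusted p = 0.418) and Tcap at 0.85 ± 0.58 (adjusted p = 0.483). An interaction F test across the 4 conditions also called none of the 40, beside 5.05% of all genes, and its smallest adjusted p was 0.189, for Tnnt1. It called 6 of the 40 without wild-type gastric reflux replicate 1, beside 13.7% of all genes. The response of Tnnt1 to gastric reflux was thus not shown to differ between the genotypes when all arrays were kept.

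**Figure D4:**
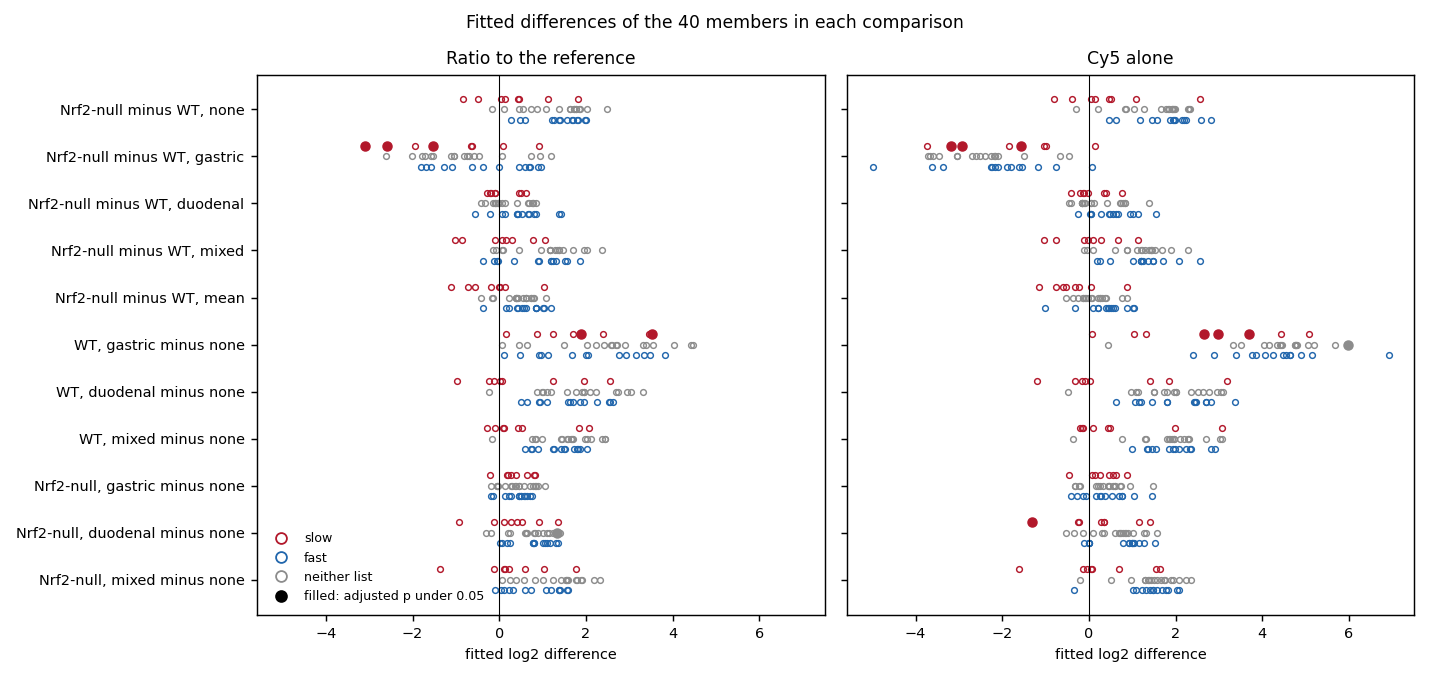
Fitted log2 differences of the 40 genes in each comparison, on the ratio and on Cy5 alone, with slow genes in red, fast genes in blue and the others in grey, and filled points where the adjusted p was under 0.05. Gastric reflux against none in wild type puts all 40 genes above 0 on both scales, and under gastric reflux the genotype difference is below 0 for 28 genes on the ratio and for 38 on Cy5.

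With duodenal reflux in wild type most of the 40 genes had higher values than without reflux, and whether they passed depended on which groups supplied the spread. In the fit of all groups, limma called none, beside 10.3% of all genes, with 8 at an unadjusted p under 0.05 and 1 on Cy5. The median difference was 1.66 (1.81 on Cy5), with 36 above 0. Tnni1 was at -0.97 ± 0.38 (adjusted p = 0.119), Actn2 at 3.31 ± 1.37 (adjusted p = 0.138; well above background on 1 of 3 arrays without reflux) and Mybpc2, the fast myosin-binding protein C, at 1.70 ± 0.72 (adjusted p = 0.15). For 31 of the 37 genes measured on at least 2 arrays a group, every duodenal reflux array lay above every array without reflux, beside 31.7% of all genes. Tnni1 was the 1 gene for which every array lay below. These counts use 1 probe a gene, and further probes did not all go the same way. A second Myh4 probe read 3.319, 3.635 and 3.704 with duodenal reflux against 4.208, 5.356 and 4.247 without. Another Myom1 probe read 0.447, 0.353 and 0.225 against 1.285, 0.526 and 1.278, so both lay below. The second Myoz1 probe lay above, at 3.241, 3.258 and 3.124 against 0.299, 1.294 and -0.158. In a fit of these 2 groups alone 33 were higher and 1, Tnni1, lower, beside 33.3% of all genes called, and with the close arrays averaged, an alternative added after seeing the data, none was called. Without wild-type gastric reflux replicate 1 the fit of all groups called 4, beside 11.3% of all genes. Without Nrf2-/- gastric reflux replicate 1 it called 1, Tnni1, which was lower, beside 16.6%. In this comparison 3 of 12 smooth muscle markers were lower, with a median of -1.31 over the 12, and 2 of 6 endothelial markers higher, with a median of 1.22 over the 6. Their part in the result was not tested. The wild-type arrays without reflux were scanned on the first and second days and the duodenal reflux arrays on the third, so scan day and condition cannot be told apart here.

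Duodenal reflux in Nrf2-/- mice gave 1 gene higher on the ratio, Mb, at 1.33 ± 0.44 (limma, adjusted p = 0.0443). Its log2 ratios were 3.66, 3.74 and 3.86 without reflux and 4.55, 5.99 and 4.71 with duodenal reflux, and the groups did not overlap. This 1 of 40 stands beside 19.7% of all genes called and 13.5% called higher. On Cy5 the difference of Mb was 1.57 ± 1.80 (adjusted p = 0.57), and its levels were 12.13, 13.94 and 13.84 against 14.48, 15.52 and 14.59. Tnni1 went the other way, at -0.94 ± 0.38 on the ratio (adjusted p = 0.0904), and was the 1 gene called on Cy5, lower by -1.31 ± 0.40 (adjusted p = 0.0305), where 19.7% of all genes were called. Tcap stood at 1.32 ± 0.58 (adjusted p = 0.12). The median of the 40 genes was 0.79 (0.77 on Cy5), with 36 above 0, and for 20 of 40 every duodenal reflux array lay above every array without reflux, beside 27.5% of all genes. The fit of all groups called 2 of the 40 without wild-type gastric reflux replicate 1, Tnnt1 and Mb, beside 20.9% of all genes. It called 3 without Nrf2-/- gastric reflux replicate 1, beside 29.7%. These were Myh1 and Mb, which were higher, and Tnni1, which was lower. In this comparison 3 of 10 squamous markers were higher and 1 lower, with a median of 0.65, and 3 of 8 cardiac markers were higher, with a median of 0.56. Their part in the result was not tested. Mb was no longer called without duodenal reflux replicate 2 or without any 1 of the arrays without reflux. Duodenal reflux replicate 2 also had a low median Cy5 of 85.3.

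Between the genotypes without reflux, 37 of the 40 genes were above 0 in Nrf2-/- mice with a median of 1.38 (1.81 on Cy5), and none passed by limma, beside 0.17% of all genes called. None had an unadjusted p under 0.05. Ckm stood at 1.78 ± 0.96 (adjusted p = 0.69), Atp2a1, the fast calcium pump, at 1.81 ± 0.99 (adjusted p = 0.698) and Myoz1, a Z-disc protein of fast fibres, at 1.98 ± 1.12 (adjusted p = 0.713). Every Nrf2-/- array lay above every wild-type array for 22 of 37 genes, beside 14.3% of all genes. For 2 of the 37, Myh7 and Tnnc1, every Nrf2-/- array lay below, beside 1530 of all 17459 genes compared. The 2 wild-type arrays of the first scan day, which lost many spots, belong to this comparison and to each comparison with wild type without reflux.

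With duodenal reflux the genotypes differed by a median of 0.27 (0.20 on Cy5), with 24 of 40 above 0 and none called by limma or at an unadjusted p under 0.05, beside 1.91% of all genes called. Mb stood at 0.78 ± 0.44 (adjusted p = 0.364), Tcap at 0.77 ± 0.58 (adjusted p = 0.498) and Pvalb, the calcium buffer parvalbumin, at 1.37 ± 1.11 (adjusted p = 0.523). With mixed reflux, where Nrf2-/- was 1 sample, the median was 1.01 (1.20 on Cy5), with none called or at an unadjusted p under 0.05, beside 3.42% of all genes. Tnni1 stood at -1.03 ± 0.54 (adjusted p = 0.353), Mybpc1, a slow-type myosin-binding protein C, at 1.95 ± 1.45 (adjusted p = 0.544) and Atp2a1 at 1.86 ± 1.40 (adjusted p = 0.549). Averaged over the 4 conditions, the genotype difference had a median of 0.44 (0.16 on Cy5), with none called, 2 at an unadjusted p under 0.05 and 8.2% of all genes called. Myh7 was at -1.13 ± 0.39 (adjusted p = 0.0835), Mb at 0.63 ± 0.25 (adjusted p = 0.127) and Mybpc2 at 0.85 ± 0.40 (adjusted p = 0.202).

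Mixed reflux against no reflux gave no call in either genotype with all arrays kept. In wild type the median was 1.46 (1.93 on Cy5), with 0 genes at an unadjusted p under 0.05, beside 0.0535% of all genes called by limma. Myl3, the slow essential light chain, stood at 2.06 ± 1.14 (adjusted p = 0.524), Neb (nebulin, which runs along the thin filament) at 2.36 ± 1.37 (adjusted p = 0.554) and Mb at 0.76 ± 0.44 (adjusted p = 0.558). Among Nrf2-/- arrays the median was 1.05 (1.45 on Cy5), with 1 gene at an unadjusted p under 0.05, beside 4.73% of all genes called. Tnni1 was at -1.38 ± 0.54 (adjusted p = 0.166), Ldb3, a Z-disc protein, at 1.57 ± 1.19 (adjusted p = 0.511) and Mybpc1 at 1.78 ± 1.45 (adjusted p = 0.548). Without Nrf2-/- gastric reflux replicate 1, Tnni1 was called here, beside 8.66% of all genes. The 3 reflux comparisons of a genotype share its arrays without reflux, and each group enters both a genotype and a reflux comparison, so these results are not independent.

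Of 79 other muscle genes, 75 were tested. Under gastric reflux 16 of the 75 were lower in Nrf2-/- than in wild-type mice and none higher, with a median of -1.28, beside 7.13% of all genes called lower. Of the sarcomere genes 6 of 24 fell, among them Myh3, the embryonic myosin heavy chain, by -2.78 ± 0.85 (adjusted p = 0.0338), and Lmod2, a thin filament leiomodin, by -2.58 ± 0.87 (adjusted p = 0.049). The small heat shock genes Hspb7 and Cryab fell too, by -1.85 ± 0.50 (adjusted p = 0.0211) and -1.36 ± 0.37 (adjusted p = 0.0199). In energy supply 4 of 16 fell: Slc25a4, the muscle ADP/ATP carrier, by -2.56 ± 0.78 (adjusted p = 0.0353), Aldoa by -1.76 ± 0.57 (adjusted p = 0.0453), Gys1, the muscle glycogen synthase, by -1.61 ± 0.46 (adjusted p = 0.0248) and Phka1 by -1.45 ± 0.45 (adjusted p = 0.0356). At the membrane and the neuromuscular junction 3 of 12 fell, namely Dmd (dystrophin) by -1.74 ± 0.52 (adjusted p = 0.0307), Dysf (dysferlin) by -1.48 ± 0.43 (adjusted p = 0.0261) and Chrnb1, an acetylcholine receptor subunit, by -1.36 ± 0.43 (adjusted p = 0.0384). Of the excitation genes 1 of 12 fell, Jph1, which ties the reticulum to the surface membrane, by -2.54 ± 0.85 (adjusted p = 0.0472). Of the regulators 2 of 11 fell: Mstn (myostatin, a brake on muscle growth) by -2.91 ± 0.96 (adjusted p = 0.0447) and the cell cycle inhibitor Cdkn1c by -1.66 ± 0.48 (adjusted p = 0.0261). None of the 75 was called without wild-type gastric reflux replicate 2, without replicate 3 or without both, and 49 were lower without replicate 1, beside 23.1% of all genes called. Without both high arrays the median was 0.93, and Cryab, Gys1 and Dysf stood at -0.07, -0.02 and -0.18. Hspb7, Dmd and Cdkn1c kept larger differences, and their values nearest 0 over the alternatives were -0.49, -0.65 and -0.93.

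In wild type 8 of the 75 were higher with gastric reflux than without and none lower, with a median of 2.26, beside 3.09% of all genes called higher. Of the sarcomere genes 4 of 24 rose: Lmod2 by 3.29 ± 0.87 (adjusted p = 0.0428), Cryab by 2.46 ± 0.37 (adjusted p = 0.00781), Hspb7 by 2.17 ± 0.50 (adjusted p = 0.0288) and Synpo2l by 1.26 ± 0.29 (adjusted p = 0.0295). At the membrane and junction 3 of 12 rose: Dok7, an organiser of the neuromuscular synapse, by 2.75 ± 0.67 (adjusted p = 0.0332), Dmd by 2.26 ± 0.52 (adjusted p = 0.0275) and Dysf by 1.66 ± 0.43 (adjusted p = 0.0401). Phkg1, the catalytic subunit of phosphorylase kinase, was the 1 of 16 energy genes that rose, by 2.20 ± 0.60 (adjusted p = 0.0474). The count was 1 without wild-type gastric reflux replicate 2 or without replicate 3 and 0 without both, while 64 were higher without replicate 1, beside 12.4% of all genes called. Without both high arrays the median was -0.24, and Lmod2, Synpo2l and Hspb7 stood at 0.11, 0.21 and 0.82. Cryab and Dmd kept larger differences, with a lowest value over the alternatives of 1.16 and 1.18. For Dok7 and Dysf that lowest value was 0.36 and 0.35. In the other comparisons Cryab was lower in Nrf2-/- mice on average, by -0.71 ± 0.21 (adjusted p = 0.0428), and the sodium channel gene Scn4a was higher with duodenal reflux in wild type, by 0.64 ± 0.19 (adjusted p = 0.0408), and no other gene of these lists passed by limma.

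Genes listed as markers of other cell types also differed on the arrays with the highest muscle signal. The mean of 5 Schwann cell and neuronal markers, centred per gene, was 1.37 and 1.39 on wild-type gastric reflux replicates 2 and 3, 1.18 on Nrf2-/- gastric reflux replicate 1 and 1.14 on wild-type mixed reflux replicate 2, against -0.69 to 0.22 on the other 20 arrays. The 12 smooth muscle markers stood at 1.40, 1.26, 0.29 and 0.53 on those 4 arrays, against -1.74 to 0.73 elsewhere, and were high in the whole wild-type gastric reflux group, at 0.73 to 1.40. Des is in this list and also among the other muscle genes above, so the smooth muscle mean is not fully separate from skeletal muscle signal. The 10 squamous epithelium markers stood at -0.57, -0.57, 0.48 and -0.10, against -0.36 to 0.74, so they were lowest on the 2 high wild-type gastric reflux arrays. The 4 tested of 5 adipocyte markers stood at 0.80, 0.53, 0.97 and 2.04, against -0.73 to 0.08. The 8 tested of 10 cardiac markers stood at 0.34, 0.36, 0.74 and 0.19, against -0.53 to 0.63, and the cardiac genes Myh6 and Ryr2 did not pass the filter on dim probes. On Cy5 alone the squamous markers read -0.68, -0.48, -0.60 and 0.03, so their direction on Nrf2-/- gastric reflux replicate 1 turned with the scale. The 8 fibroblast markers stood at 0.75, 1.17, -0.68 and 0.97, against -1.40 to 1.07, the 6 endothelial markers at 0.76, 0.98, -0.20 and 0.52, against -1.16 to 0.86, and the 6 macrophage markers at 0.13, 0.28, -0.53 and 0.79, against -1.22 to 1.12. In the genotype comparison under gastric reflux, 3 of 12 smooth muscle, 2 of 8 fibroblast and 4 of 6 endothelial markers were lower in Nrf2-/- mice and 2 of 10 squamous and 2 of 8 cardiac markers higher, beside 7.13% of all genes called lower and 10.5% called higher. The part of these other cell types in the differences of the muscle genes was not tested.

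Over the 22 samples, the genes outside the 40 with the highest correlation to their mean were named from 15346 genes measured on every sample. Pgam2, the muscle phosphoglycerate mutase, came first at Pearson's r = 0.993, followed by Tmem182 and Lmod3 at 0.99 and by Hrc, a calcium-binding protein of the reticulum, at 0.986. Mylk2, the skeletal myosin light chain kinase, and Jsrp1 stood at 0.983, Mybph and Art1 at 0.981, Usp13 at 0.98 and the unnamed transcript ENSMUST00000099980 at 0.986. Pgam2 shows the shared profile on its own: it read -2.21, 4.27 and 4.27 in wild-type gastric reflux and 4.11, -0.69 and -0.65 in Nrf2-/- gastric reflux. The coefficients describe these samples, which share a reference and a normalisation.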

How the data were processed

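RNA from the oesophagus was measured on 24 two-colour Agilent arrays, 3 in each of 8 groups. The deposited scanner files hold mean and background intensity on a linear scale for 45018 spots, per the file headers. The scanner software's own ratio of the dyes, Cy5 over Cy3 as log10, is deposited beside them, per the file headers. The authors' deposited value table holds log2 ratios (slope 2.68 to 3.14 on the log10 ratio, direction the same, column medians 0 to 0.07); their normalisation is not stated in the labels. File headers name Feature Extraction 10.5.1.1 with build mm7 for slide 1 and 10.7.3.1 with mm9 elsewhere, and the submitters' processing notes name version 9.1.

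Intensities were background-corrected (normexp, offset 50) and normalised by loess with limma 3.58.1 in R 4.3.3, without control and outlier spots, and a background marked as an outlier took the median of its array. Probes had to exceed background clearly in Cy5 on every array of some group, and the brightest such probe stood for its gene (20565 genes). A mean per group was fitted to 22 samples with eBayes, and p-values were adjusted over all genes tested by the Benjamini-Hochberg method, threshold 0.05. A value after ± beside a fitted difference is its SE. Cy5 alone was normalised by loess and Aquantile and fitted alike. Scan days were numbered from the file headers. Replicate numbers did not pair the samples (correlations of deviations -0.33 to 0.05). The fit was tested on simulated data.

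Test values are given for the members that passed and, where fewer than 3 did, for the 3 smallest p-values, for at most 4 passing genes of each other list, and for the 10 genes most correlated with the members' mean. The members, lists and tests were chosen with earlier results of these data known. Promoter sequences are RefSeq's (GRCm38.p6), and 33 of 40 members had an entry. Alternatives covered background, normalisation, filter, dyes, blocks by scan day, slide and replicate, and left-out arrays.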

Additional observations from a re-analysis of the deposited data

How the results depend on the processing

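The counts of the 40 genes that passed were recomputed under each alternative. Leaving out 1 array of the compared groups at a time gave 0 to 15 for the genotypes under gastric reflux, 0 to 33 for gastric reflux in wild type, 0 to 3 for the mean genotype difference, 0 to 1 for duodenal reflux in Nrf2-/- mice, 0 to 6 for the interaction and 0 throughout for the others. For the genotypes under gastric reflux, in place of 3, the count was 0 with scan day as a block, in a fit of the compared groups alone, without both high wild-type gastric reflux arrays and with close arrays averaged, 1 with slide as a random block (correlation 0.11) and 6 without the 2 dimmest Nrf2-/- reflux arrays. For gastric reflux in wild type, in place of 2, it was 10 with arrays centred on the median, 4 on Cy5 after Aquantile, 13 on Cy5 centred on the median, 9 with backgrounds as read, 8 without the 2 dim arrays and 1 with the deposited log2 ratios. It was 0 with scan day or slide as a block, with slide as a random block, within scan day 2, for the compared groups alone, without slide 1, without both high arrays and with close arrays averaged. For duodenal reflux in Nrf2-/- mice, in place of 1, it was 5 with slide as a block (4 higher, 1 lower). For the compared groups alone it was 4 (3 higher, 1 lower). It was 0 with arrays centred on the median, with backgrounds as read, without the filter and with scan day as a block. It was also 0 without slide 1, without the 2 dim arrays and with close arrays averaged. For duodenal reflux in wild type, in place of 0, it was 34 for the compared groups alone, 8 with backgrounds as read, 3 with the deposited log2 ratios, 2 with the scanner's log ratio, without both high arrays and without the 2 dim arrays, and 1 with arrays centred on the median. For the mean genotype difference, in place of 0, it was 2 with Nrf2-/- mixed reflux counted as 3 samples, of which 1 was higher and 1 lower in Nrf2-/- mice. It was 1 with arrays centred on the median, the scanner's log ratio, backgrounds as read and without the 2 dim arrays. That 1 gene was higher with arrays centred on the median and lower in the other settings. The 3 called without wild-type gastric reflux replicate 1 were all lower. Without both high arrays of that group, which leaves it 1 array, the genes that passed were all higher instead. Backgrounds as read gave 2 for the genotypes without reflux and 4 for mixed reflux in wild type. The compared groups alone gave 2 for the genotypes under duodenal reflux. For the genotypes under mixed reflux, Nrf2-/- mixed reflux as 3 samples gave 1. For mixed reflux in Nrf2-/- mice it was 1 in that setting, with slide as a block, for the compared groups alone and without the 2 dim arrays.

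The replicate block gave 1 for gastric reflux in wild type, 0 for duodenal reflux in Nrf2-/- mice, 3 for the genotypes under gastric reflux and 0 elsewhere, and the numbers pair no samples. The span of the members' mean over arrays was 4.18, and it moved to 7.03 on Cy5 after Aquantile and 7.10 on Cy5 centred on the median. The span of slow minus fast was 3.30 and moved to 4.42 and 4.06. Without both high wild-type gastric reflux arrays the genotype difference under gastric reflux turned to 0.037 for Myh7, 0.09 for Tnnt1, 0.18 for Tnnc1, 0.60 for Lmod2, 0.27 for Myh3, 0.40 for Jph1, 0.28 for Phka1, 0.078 for Slc25a4, 0.22 for Aldoa, 0.13 for Chrnb1 and 0.65 for Mstn, and the gastric reflux difference in wild type turned to -0.025 for Phkg1. Median-centred Cy5, both high arrays left out, the dim arrays left out and close arrays averaged were chosen after seeing the data. With slide as a block the genotype differences without reflux, under gastric reflux and on average, the interaction, and duodenal and mixed reflux in wild type could not be fitted. The cause of these changes was not tested. The number of arrays limits precision, and Myl2, Mybpc1 and Casq1 were not well above background on any wild-type array without reflux.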
